A study of Mus musculus with 12 samples.

Results

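The Reg genes encode small secreted C-type lectins, and 5 of them, Reg1, Reg3a, Reg3b, Reg3g and Reg4, were followed through the RNA of group 3 innate lymphoid cells (ILC3s) of the mouse small intestine. They are 5 of the 23284 genes of the expression table. They were chosen by family and selected on their measured levels in these same libraries, so their differences between diets and layers are given as descriptions, with standard errors and without a test. Levels are in FPKM (fragments per kilobase of transcript per M mapped fragments). All 5 were among the 12502 genes that passed the filter on low values, with 3 or more libraries at an FPKM of 1 or higher. A member could pass it through the group in which it is high. Reg2 and Reg3d, the remaining listed members of the family, were at 0 in all 12 libraries.

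The mice were HR-1 hairless mice aged 18 weeks, with 12 libraries in 4 groups of 3. PA milk mice had been born to mothers on a normal diet (ND). After birth they were moved to be suckled by mothers whose chow was supplemented with palmitic acid (PA). ND mice had mothers kept on the normal diet, and the study describes no such swap for them. Any effect of the swap cannot be told apart from that of the milk. From each diet, the ILC3s of the intraepithelial layer (IEL) and of the lamina propria (LP) were sequenced. ILC3s had been sorted as lineage-negative cells carrying Thy1.2, CD25 and Nrp1. The study gives a further marker of the gate as CD4 in one place and as CD45, which epithelial cells lack, in another. Their RNA was amplified with a kit for very small RNA inputs. Nothing in the labels says that the 3 libraries of a group came from separate animals, so the spread between them may be technical. The same replicate numbers recur in both layers of a diet, and the labels do not say whether those libraries share an animal.

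Reg3 lectins are made mainly by epithelial cells of the small intestine, enterocytes and Paneth cells, and are secreted into the mucus, where they bind and kill bacteria and keep them away from the epithelium. Reg3g acts mainly on Gram-positive bacteria and Reg3b also on Gram-negative ones. Interleukin-22 from ILC3s is a main inducer. It binds a receptor of Il22ra1 and Il10rb on epithelial cells, not on the ILC3s themselves, and signals through STAT3. Reg1 is known from regenerating pancreas and from injured gut epithelium, and Reg4 from enteroendocrine and other secretory epithelial cells.

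All members but Reg4 lie side by side on chromosome 6. In GENCODE vM21 (GRCm38, the build that mm10 names) the cluster spans chr6:78370657-78468872, or 98.2 kb, and the 6 protein-coding genes in it are all Reg genes. Reg3b (chr6:78370657-78373466) lies at one end on the plus strand and Reg3g (chr6:78466269-78468872) at the other on the minus strand. Reg3a (chr6:78380709-78383827, plus strand) and Reg1 (chr6:78422711-78428667, plus strand) lie between them, as do Reg3d and Reg2, both listed at 0. Reg4 stands apart on chromosome 3 (chr3:98222156-98236748, plus strand). The transcripts of Reg3b and Reg3g were 67.5% identical over 815 aligned positions, and no pair of the 7 family members shared a stretch of 50 bases, so long identical stretches that would split reads between members were not found.

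The promoters of Reg3b and Reg3g are shown because these members moved most alike, and that of Reg1 because it did not follow them. Each is the 250 bases before the RefSeq start on GRCm38.p6, 5′ to 3′ on the strand of the gene. Reg3b is at chr6:78370635-78370884 (plus strand), Reg3g at chr6:78468875-78469124 (minus strand) and Reg1 at chr6:78425733-78425982 (plus strand), and the GENCODE models of Reg3b and Reg1 begin further upstream than these RefSeq starts. Capitals mark 3 motifs, the TATA element TATAAA on either strand, the STAT element TTCNNNGAA and its wider form TTCNNNNGAA, which both read the same on either strand.
Reg3b: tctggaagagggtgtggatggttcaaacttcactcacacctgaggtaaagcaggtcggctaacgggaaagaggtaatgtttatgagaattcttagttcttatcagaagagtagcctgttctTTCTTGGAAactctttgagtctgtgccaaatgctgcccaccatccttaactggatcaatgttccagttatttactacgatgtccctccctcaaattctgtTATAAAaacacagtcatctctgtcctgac
Reg3g: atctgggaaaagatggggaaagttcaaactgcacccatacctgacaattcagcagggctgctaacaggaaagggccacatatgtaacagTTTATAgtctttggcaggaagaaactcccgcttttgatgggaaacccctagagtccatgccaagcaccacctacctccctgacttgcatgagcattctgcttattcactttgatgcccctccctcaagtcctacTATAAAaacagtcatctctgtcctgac
Reg1: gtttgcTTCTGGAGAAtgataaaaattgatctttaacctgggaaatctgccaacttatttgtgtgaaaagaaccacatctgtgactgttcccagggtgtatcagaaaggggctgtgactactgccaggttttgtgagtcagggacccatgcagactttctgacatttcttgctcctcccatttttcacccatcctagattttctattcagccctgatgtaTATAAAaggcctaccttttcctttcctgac
The windows of Reg3b and Reg3g were 68.4% identical (173 of 253 aligned positions), the highest of the 21 pairs in the family, against 44.7% to 56.9% for the others. TATAAA began 29 bases before the start in Reg3b, 27 in Reg3g and 30 in Reg1, and Reg3g also held it on the opposite strand, 161 bases before the start. TTCNNNGAA was present once in Reg3b, 129 bases before the start, and these letters were not in the windows of Reg3g or Reg1. Reg1 held TTCNNNNGAA 244 bases before the start. Of all 32851 windows of the same length, 12.4% held TATAAA on either strand, 7.02% TTCNNNGAA and 5.85% TTCNNNNGAA. No marked motif overlapped another.

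The libraries differed in quality and in the cells they stood for. Depth, worked out from the steps in the scaled counts, was 8.76 to 14.6 M reads (median 13.0 M). PA IEL replicate 2 had 4390 genes of at least 1 FPKM and PA LP replicate 2 had 5637, whereas ND IEL replicate 2 had 7863 and the other 9 had between 8406 and 11378. Il7r, the interleukin-7 receptor chain that ILC3s carry, was under 0.1 FPKM in 3 of 12 libraries, namely PA IEL replicate 2, PA LP replicate 2 and ND LP replicate 1. Thy1, a marker of the sort, was under 0.1 FPKM in 5 of 12, whereas Id2, a regulator of innate lymphoid cells that other cells express too, was at 95.2 to 750 FPKM in all 12. Of 13 ILC3 markers, 1 reached 1 FPKM in PA IEL replicate 2, 3 in PA LP replicate 2, 3 in ND IEL replicate 2, 4 in PA LP replicate 1 and 8 to 13 in each of the other 8 libraries. Of 15 pan-epithelial markers, 5 reached 1 FPKM in PA IEL replicate 2 and 10 to 15 in each of the other 11. Krt8, a keratin of epithelial cells, was at 121 to 3461 FPKM with a median of 1216, and Epcam, an epithelial surface protein, reached 1 FPKM in 11 of 12 libraries, being 0.196 FPKM in PA IEL replicate 2. Epithelial transcripts were thus measured in every library, and the Reg genes are given beside them in what follows.

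Reg3b had the highest mean level in both ND groups, but not in PA IEL, where Reg1 was higher, or in PA LP, where Reg3g and Reg4 were. Its mean was 12071 ± 10204 FPKM (SD, n = 3) in ND IEL, 487 ± 818 in PA IEL, 3153 ± 3783 in ND LP and 5.48 ± 4.32 in PA LP. In ND IEL its level was 22959, 2728 and 10526 FPKM in replicates 1 to 3, and in PA IEL 28.0, 2.25 and 1431 FPKM. Every PA IEL library lay below every ND IEL library, although PA IEL replicate 3 stood far above the other two of its group and the lowest ND library was only 1.91 times the highest PA library. In LP the level was 308, 7447 and 1704 FPKM in ND, and 2.68, 3.31 and 10.5 FPKM in PA. These groups did not overlap either, and the lowest ND LP library was 29.5 times the highest PA LP library.

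The 12 libraries held 379284 Reg3b reads in all, of which the ND libraries carried 97.3%. ND IEL replicate 1 alone held 196411 of them. The 3 PA LP libraries held 102 between them, from 19, 20 and 63 reads, still above the floor of 3 reads a library below which values were given no order. On the scale of log2(FPKM + 1), the log2 fold change of Reg3b in PA milk was -7.41 (SE 1.60) in IEL and -8.12 (SE 1.60) in LP, with n = 3 per group. Reg3b was the top gene of the whole table in ND IEL replicate 1, where it made up 3.20% of all FPKM, and ranked 26 and 3 in the other two ND IEL libraries. In PA IEL it ranked 3704, 4233 and 72.

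Reg3g, its partner lectin, followed the same order in IEL, with a mean of 6789 ± 4924 FPKM (SD, n = 3) in ND and 287 ± 266 in PA. It was at 12233, 2645 and 5490 FPKM in ND IEL and at 327, 2.44 and 530 FPKM in PA IEL. The groups did not overlap, and the lowest ND library was 4.99 times the highest PA library. In LP it was at 11.3, 3741 and 953 FPKM in ND and at 25.2, 0.644 and 26.0 FPKM in PA. Here the groups overlapped, since ND LP replicate 1 lay below PA LP replicates 1 and 3. The log2 fold change on log2(FPKM + 1) was -6.06 in IEL and -5.07 in LP (SE 1.92 for both). Of 213009 Reg3g reads, 97.2% were in ND libraries, close to the share for Reg3b, and ND IEL replicate 1 alone held 107496.

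**Figure D1:**
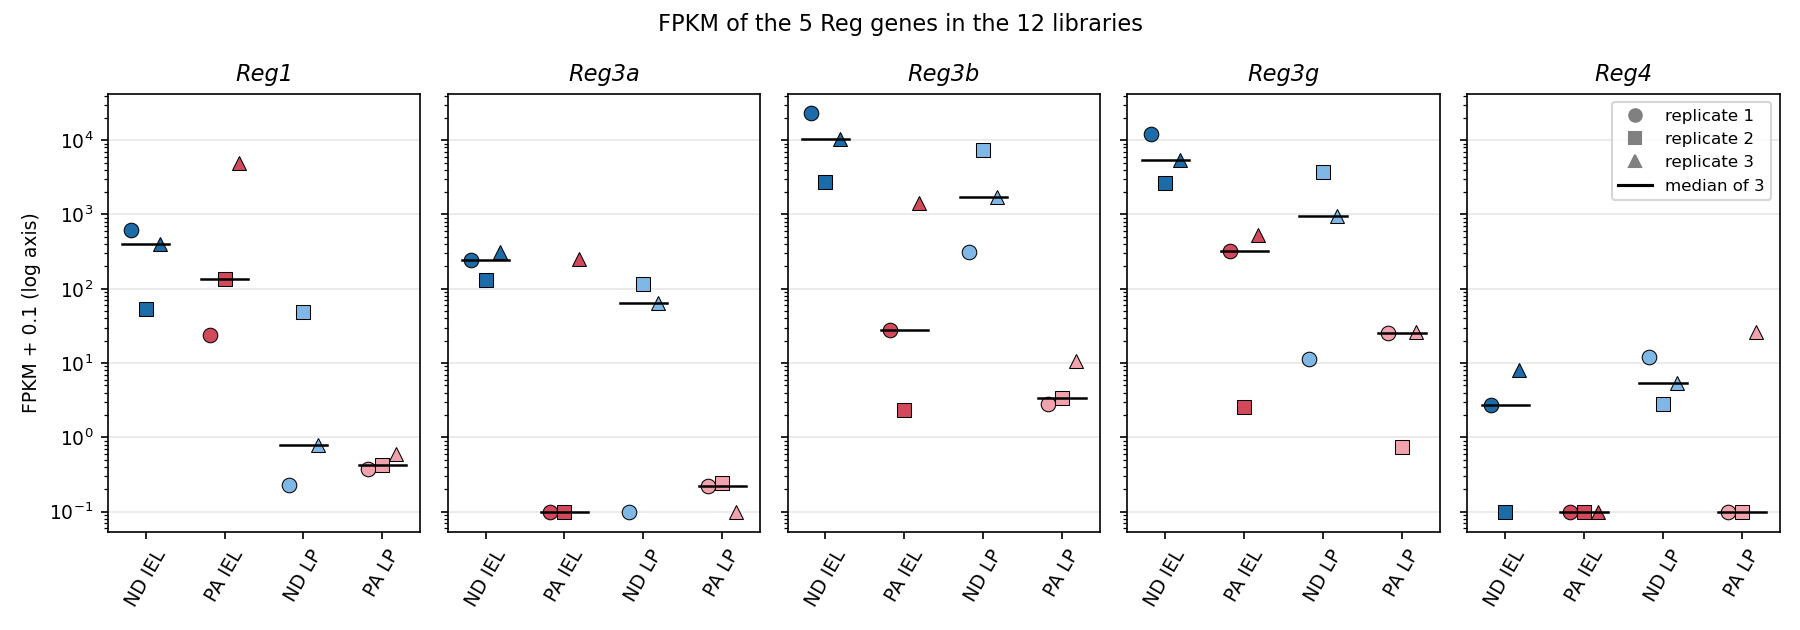
FPKM plus 0.1 on a log axis for the 5 Reg genes, 1 point a library, with a bar at the median of each group of 3; points at the bottom are genes listed at 0. Reg3b lies lower in all 3 PA libraries than in any ND library of the same layer, Reg3g does so in IEL, and Reg1 in PA IEL replicate 3 reaches 4879 FPKM.

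The ratio of the pair varied less where both were abundant. Reg3b was 1.88, 1.03 and 1.92 times Reg3g in FPKM in the ND IEL libraries and 1.99 and 1.79 times in ND LP replicates 2 and 3. ND LP replicate 1 stood apart at 27.2 times. In PA milk the ratio ran from 0.0856 to 2.70 in IEL, the highest in replicate 3, where both were abundant, and from 0.107 to 5.14 in LP, where PA LP replicate 2 rested on 4 reads of Reg3g. Reg3b was thus the lower of the pair in 4 of the 6 PA libraries and in none of the 6 ND libraries. Across the 12 libraries Spearman's rho between Reg3b and Reg3g was 0.93. These points share the layer, the diet and the epithelial RNA of their library.

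**Figure D2:**
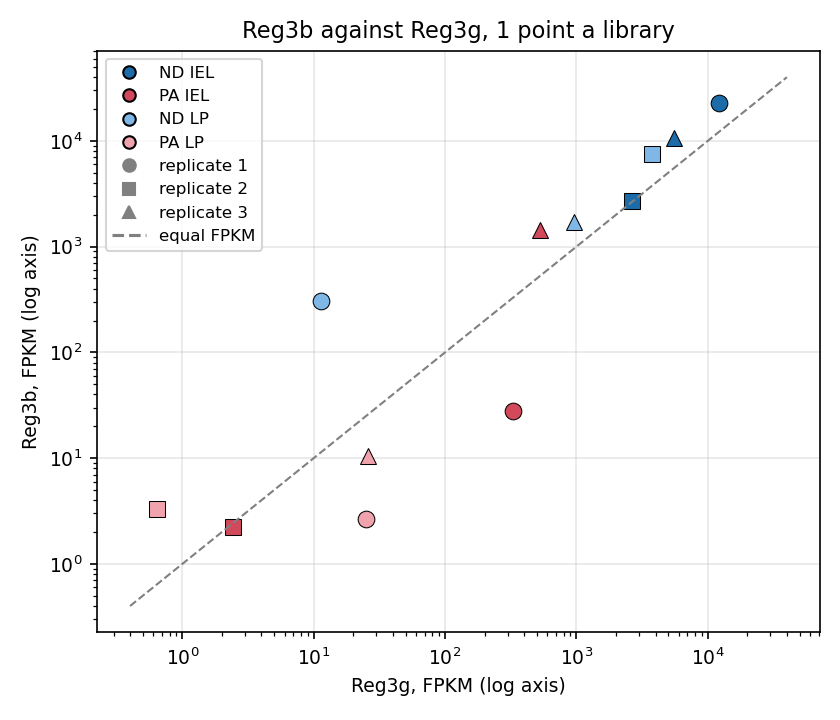
Reg3b against Reg3g in FPKM, both on log axes, 1 point a library, with a dashed line of equal level. The points with both genes high lie just above the line, and ND LP replicate 1 lies 27.2 times above it.

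Reg3a, the third Reg3 lectin expressed here, was less abundant per length than Reg3b in every ND library. It was at 243, 132 and 308 FPKM in ND IEL, and at 0, 0 and 252 FPKM in PA IEL. Its PA IEL signal came from replicate 3 alone, which lay within the range of ND, so the groups overlapped, and the log2 fold change of -5.09 (SE 1.98) rested on the 2 libraries at 0. In LP it was at 0, 115 and 64.3 FPKM in ND and at 1, 1 and 0 reads in PA. Its PA LP libraries were all under the floor, so no fold is given for LP.

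Reg1 did not follow the Reg3 genes. It was at 613, 54.1 and 398 FPKM in ND IEL and at 23.7, 137 and 4879 FPKM in PA IEL, where replicate 3 carried 34644 reads and placed Reg1 at rank 13 of all genes. That library lay above all 3 ND libraries and replicate 1 below all 3, and the log2 fold change was 0.10 (SE 1.74). Its direction turned on single libraries, with -2.03 without PA IEL replicate 3 and 1.78 without PA IEL replicate 1. Reg1 made up 6.25%, 96.7% and 68.8% of the summed FPKM of the 5 members in PA IEL replicates 1 to 3, against 0.973% to 2.38% in ND IEL. In LP it was near the floor outside ND LP replicate 2, with 1, 343 and 4 reads in ND and 2, 2 and 3 reads in PA. No fold is given for LP, since no PA LP library rose above the floor.

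Reg4 had the lowest mean level in IEL and in ND LP, but not in PA LP. It was listed at 0 in all 3 PA IEL libraries and at 2.61, 0 and 7.90 FPKM in ND IEL, where the libraries above 0 held 33 and 99 reads. In LP it was at 11.97, 2.72 and 5.33 FPKM in ND and at 0, 0 and 25.9 FPKM in PA. The highest value of all 12 was therefore in a PA library, and the groups overlapped in both layers. The log2 fold change in LP was -1.17 (SE 1.24), from -2.75 without PA LP replicate 3 to -0.38 without PA LP replicate 1, and the log2 ratio of the mean FPKM was 0.37.

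Read against the background of all genes, 2 of 5 members, Reg3b and Reg3g, had every PA library below every ND library in IEL, as had 5.22% of the 12502 genes tested. In LP it was 1 of 5, Reg3b, against 6.6% of all genes. Reg3b did so in both layers, as did 0.472% of all genes. No member lay wholly above ND in either layer. Since the members were selected on these values, nothing is read from those counts.

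Across all genes, limma with Benjamini-Hochberg adjustment called 0.0% at an adjusted p under 0.05 for diet in IEL and 0.0% in LP. At an unadjusted p under 0.05 it had 2.82% lower and 0.752% higher in PA in IEL, and 4.04% lower and 0.664% higher in LP. Over all genes the median log2 fold change stood at -0.30 in IEL and at -0.36 in LP, and scaling on the upper quartile moved these to -0.54 and -0.59. Under that scaling Reg3b was at -7.74 and -8.46, and Reg3g at -6.40 and -5.33. In the bulk RNA of a sort, fewer cells of a type and less RNA per cell cannot be told apart.

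**Figure D3:**
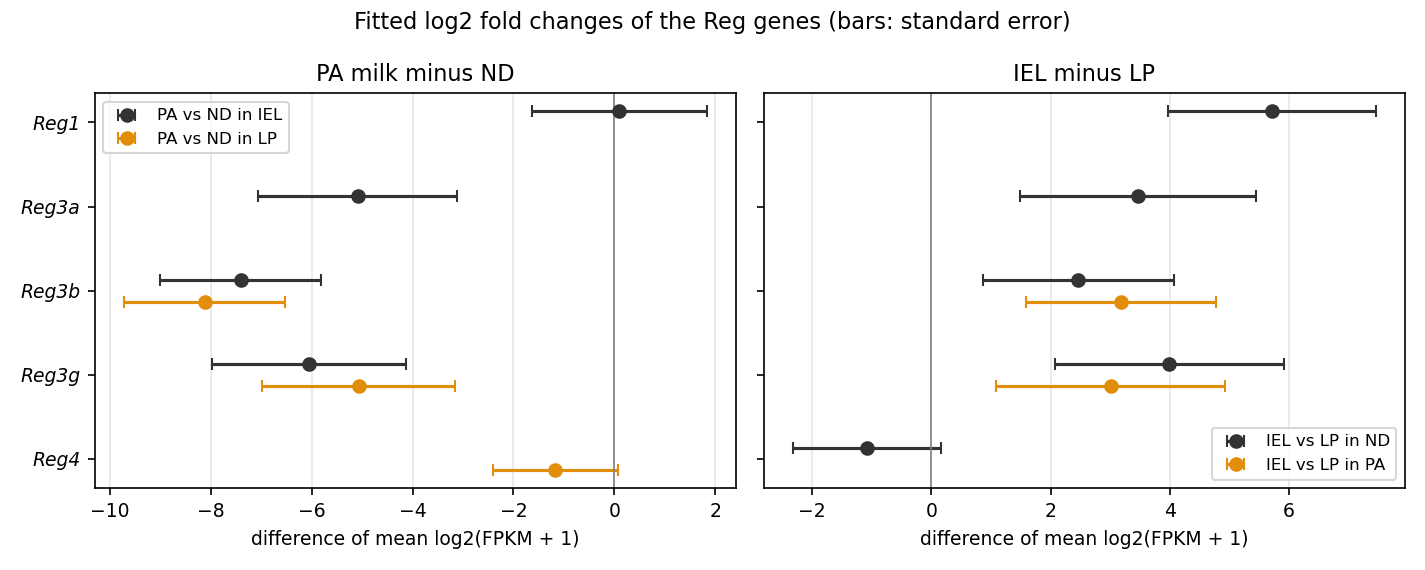
Differences of mean log2(FPKM + 1) of the Reg genes with standard errors, n = 3 libraries a group, PA milk minus ND on the left and IEL minus LP on the right. Reg3b and Reg3g lie left of 0 in both layers, and no point is drawn where a group was at or under the floor (Reg4 in PA IEL, Reg1 and Reg3a in PA LP).

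The libraries with few genes and the high PA IEL library weighed on the sizes. Without PA IEL replicate 2 the IEL log2 fold change was -5.42 for Reg3b and -3.75 for Reg3g, and without PA IEL replicate 3 it was -9.81 and -7.39. Without PA LP replicate 2 the LP values were -7.92 and -3.73. Both genes stayed lower in PA milk in both layers under each of these. Between the layers, the fold changes (LP minus IEL) differed by -0.71 (SE 2.26) for Reg3b and by 0.99 (SE 2.71) for Reg3g, less than their errors.

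By layer, mean levels of Reg1, Reg3a, Reg3b and Reg3g were higher in IEL than in LP, with overlap for Reg3b and Reg3g in both diets, and those of Reg4 were lower. With normal diet, the log2 difference of IEL minus LP was 5.71 (SE 1.74) for Reg1, 3.46 (SE 1.98) for Reg3a, 2.46 (SE 1.60) for Reg3b and 3.99 (SE 1.92) for Reg3g, and -1.08 (SE 1.24) for Reg4. The value of Reg4 moved to -0.25 when ND IEL replicate 2 was left out and to -1.82 when replicate 3 of that group was. Only for Reg1 and Reg3a did every ND IEL library lie above every ND LP library, 2 of 5 members against 9.95% of all genes. For Reg3b and Reg3g, ND LP replicate 2 reached into the range of ND IEL. Without ND LP replicate 1, where Reg3a was at 0 and Reg3g at 11.3 FPKM, the difference was 1.31 for Reg3a, 1.29 for Reg3b and 1.57 for Reg3g. In PA milk it was 3.18 (SE 1.60) for Reg3b and 3.005 (SE 1.92) for Reg3g. Those values rested on single libraries too, with 0.78 for Reg3b without PA IEL replicate 3, 5.17 for Reg3b and 5.31 for Reg3g without PA IEL replicate 2, and 1.67 for Reg3g without PA LP replicate 2. No difference is given in PA milk for Reg1 and Reg3a, which were at or under the floor in LP, or for Reg4, at 0 in IEL against 0, 0 and 25.9 FPKM in LP. Reg1 was the 1 of 5 members with every PA IEL library above every PA LP library, against 4.06% of all genes. Epithelial markers differed by layer as well, in both directions. All 15 enterocyte genes were higher in IEL in both diets (median log2 difference 4.94 in ND and 4.79 in PA milk). Of them, 1 and 4 passed the adjusted threshold by limma. Of all 12502 genes, 1 and 11 were called higher and 3 and 7 lower. Of the 15 pan-epithelial genes, 12 were higher in IEL in ND (median 1.39) and 10 in PA milk (median 1.61). Of these, 0 passed by limma and 5 in each diet were higher at an unadjusted p under 0.05. At that threshold 374 and 615 of all 12502 genes were higher in IEL. Goblet cell genes were instead lower in IEL, for 9 of 9 in ND (median -3.08) and 7 of 9 in PA milk (median -0.76). Paneth cell genes were lower for 5 of 8 (median -0.88) and 8 of 8 (median -3.435). Other epithelial antimicrobial genes were lower for 10 of 16 (median -0.49) and 11 of 16 (median -2.39). Limma called 0 genes of these lists in either diet. Of all 12502 genes, 6699 and 6388 were lower in IEL, with medians of -0.09 and -0.03. The part of these markers in the layer differences of the Reg genes was not tested.

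Per length, the order of mean levels was Reg3b, Reg3g, Reg1, Reg3a and Reg4 in ND IEL, with Reg3b and Reg3g overlapping each other and Reg1 and Reg3a overlapping each other. In ND LP the order was Reg3b, Reg3g, Reg3a, Reg1 and Reg4, and every neighbouring pair overlapped. In PA IEL it was Reg1, Reg3b, Reg3g and Reg3a, again with overlap throughout, and Reg4 at 0. In PA LP it was Reg3g, Reg4 and Reg3b, with overlap throughout, and Reg1 and Reg3a were at or under the floor and were given no order.

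Epithelial markers were also at lower levels in most PA libraries. The 15 genes of a pan-epithelial list (keratins, claudins, Epcam, Cdh1 and others) summed to 10632, 7585 and 7911 FPKM in ND IEL and to 4283, 1053 and 10252 FPKM in PA IEL. In LP they summed to 2701, 2453 and 5409 FPKM in ND and to 974, 1693 and 455 FPKM in PA. All 15 had been tested, and 14 were lower in PA milk in IEL (median log2 fold change -2.13) and 15 in LP (median -1.99), though none passed the adjusted threshold. Without the 2 libraries with the fewest genes, PA IEL replicate 2 and PA LP replicate 2, 12 of the 15 were lower in IEL (median -0.51) and 15 in LP (median -1.95). The medians of all genes were then 0.00139 and -0.05. Krt8, the most abundant of them at a mean of 1420 FPKM, had a log2 fold change of -0.94 (SE 0.59, adjusted p = 0.947 by limma) in IEL and of -2.15 (SE 0.59, adjusted p = 0.891) in LP. Without those 2 libraries Krt8 was at -0.20 and -2.68. Krt19, the next most abundant, was at -2.13 and -1.99, but in IEL it was at 1.27 without PA IEL replicate 2, where it was 0.312 FPKM. Genes of other cells were lower in PA LP too, 7 of 7 of the B and plasma cell list (median -3.71) and 12 of 14 of the ILC3 list (-1.80). T cell genes were lower for 7 of 8 (-1.95), and macrophage and neutrophil genes for 3 of 10 (0.65). Their IEL medians were 0.004, 0.69, -1.23 and 0.29 in that order, and limma called 0 of these genes in either layer. Without those 2 libraries the medians were -3.32, -1.65, -0.69 and 0.05 in LP and 0.01, 2.02, -0.89 and -0.02 in IEL.

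Each Reg gene was set against the pan-epithelial sum of its own library, as the log2 difference. Reg3b had a mean of 0.02 (SD 1.34, n = 3) in ND IEL and -6.13 (SD 2.91) in PA IEL, a difference of -6.15. In LP its mean was -1.06 (SD 2.42) in ND and -7.33 (SD 1.77) in PA, a difference of -6.26. For Reg3g the difference was -4.80 in IEL and -3.21 in LP. Every PA library lay below every ND library for Reg3b in both layers and for Reg3g in IEL, and not for Reg3g in LP. The share of all genes that did so on this scale was not worked out. Since the members were selected on these libraries, nothing is read from that separation. Leaving out single libraries gave -1.30 for Reg3g in LP without ND LP replicate 2, -1.42 without PA LP replicate 2 and -5.49 without ND LP replicate 1. For Reg1 in IEL the difference was 1.36, with overlap, and it was -0.01 without PA IEL replicate 3 and 3.17 without PA IEL replicate 1. Without PA IEL replicate 2 the IEL values were -5.04 for Reg3b and -3.37 for Reg3g. The part that the epithelial share of a library had in these differences was not tested further.

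**Figure D4:**
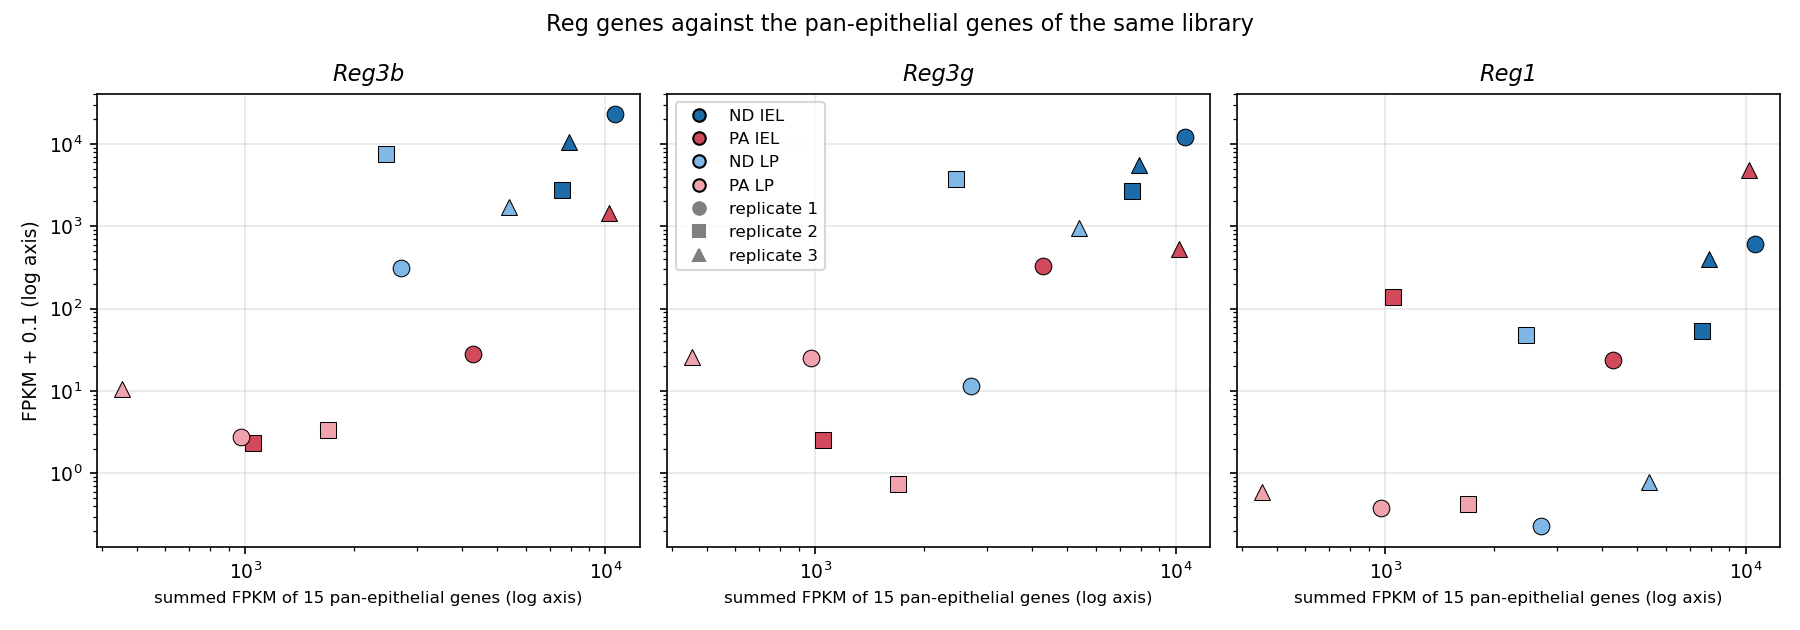
Reg3b, Reg3g and Reg1 (FPKM plus 0.1) against the summed FPKM of 15 pan-epithelial genes in the same library, both axes log. In the 2 libraries with the highest pan-epithelial sums, Reg3b was 22959 FPKM in ND IEL replicate 1 and 1431 FPKM in PA IEL replicate 3, while Reg1 was higher in the latter.

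Markers of single epithelial lineages differed in their median log2 fold changes. For enterocyte genes the medians were -1.62 in IEL and -1.35 in LP, with Fabp2, a fatty acid binding protein, at -2.59 and -1.21 and Apoa1, an apolipoprotein, at -1.38 and -1.50. The sum of the enterocyte list was highest in ND IEL replicate 2 at 102820 FPKM, where Reg3b was the lowest of ND IEL. Goblet cell genes had medians of -2.19 and -4.63, with Zg16, a lectin-like protein of mucus, at -5.19 and -8.36 and Tff3, a trefoil peptide, at -3.42 and -5.15. Paneth cell genes had medians of -3.40 and -0.18, with Lyz1, lysozyme, at -3.41 and -0.39 and Defa24, a defensin, at -4.09 and -0.50. In LP the Paneth list had 4 of 8 genes lower. Without the 2 libraries with the fewest genes, the IEL and LP medians were -0.79 and -1.82 for enterocyte genes, -1.36 and -4.74 for goblet cell genes and -3.43 and -0.69 for Paneth cell genes, with Tff3 at -1.36, Fabp2 at -1.49, Apoa1 at -0.79 and Zg16 at -3.32 in IEL, and Apoa1 at -3.04, Lyz1 at -0.68 and Defa24 at -1.11 in LP. None of these genes passed an adjusted p under 0.05 by limma for diet, and lists share genes (Zg16, for one, is also in the antimicrobial list).

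Few of the enteroendocrine and tuft markers could be read, with 2 tested of 11 and 2 tested of 8. Sct, which encodes secretin, was at 19.4, 44.6 and 86.2 FPKM in ND IEL and at 6.84, 0 and 21.9 FPKM in PA IEL. Sst, somatostatin, was above 0 in 2 libraries, at 20.8 FPKM in PA LP replicate 3, the library in which Reg4 was highest, and at 10.3 FPKM in ND IEL replicate 3. In PA LP replicate 3, 3 of the 11 enteroendocrine genes reached 1 FPKM, the others being Gip at 13.9 FPKM and Sct at 3.67 FPKM. Chga was at 0 there, and Sct was at 262, 19.0 and 44.8 FPKM in ND LP. Of the tuft genes, Alox5ap averaged 75.6 FPKM and Gfi1b 7.28 FPKM. Of 13 pancreatic acinar genes, 7 were at 0 in all libraries, Cela3b, Cpa1, Amy2b, Ctrb1, Try4, Try5 and Cel, and 3 were under 1 FPKM in all, Cela2a, Cpb1 and Pnlip. The 3 that passed the filter were Clps (mean 24.0 FPKM), Cela1 (23.0 FPKM) and Prss2 (9.93 FPKM), of which Clps was at 0 in all 3 PA IEL libraries and Cela1 was highest in PA LP replicate 2, at 108 FPKM. The part that any of these cell types had in the Reg levels was not tested beyond the values given.

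Other antimicrobial genes of the epithelium, a list of 24 with 16 tested, were lower in PA IEL for 14 of 16 (median -3.04) and in PA LP for 9 of 16 (median -0.36), where of all 12502 genes 7565 were lower in IEL and 7777 in LP. Of these 16, 0 were called by limma in either layer, with 5 lower and 1 higher in IEL and 2 lower and 1 higher in LP at an unadjusted p under 0.05, beside 2.82% lower and 0.752% higher of all genes in IEL and 4.04% and 0.664% in LP. Without the 2 libraries with the fewest genes, 13 of 16 were lower in IEL (median -2.96) and 11 of 16 in LP (median -0.69).

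The IL-22 axis, known for driving Reg3 genes in epithelium, was read from 4 lists of inducing cytokines, receptors, signalling genes and other targets, with 46 genes tested. Limma called 0 of them for diet in IEL and 0 in LP, and limma-voom also 0 and 0. In IEL 15 were higher and 31 lower in PA milk (median -0.58), in LP also 15 and 31 (median -0.42), against 4752 higher and 7565 lower of all genes in IEL and 4671 and 7777 in LP. At an unadjusted p under 0.05 there were 2 higher and 2 lower in IEL, and 1 higher and 6 lower in LP, beside the same shares of all genes as above. The median turned to 0.06 in IEL without PA IEL replicate 2 and to 0.18 in LP without PA LP replicate 2.

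Il22, the cytokine itself, overlapped between the diets in IEL. It was at 81.5, 0.177 and 144 FPKM in ND IEL and at 565, 0.248 and 104 FPKM in PA IEL, a log2 fold change of 0.80 (SE 2.61, adjusted p = 1.0 by limma), or 3.33 without PA IEL replicate 2. A link between Il22 and the Reg genes was not tested. In LP Il22 was at 0.164, 4339 and 198 FPKM in ND and under 0.5 FPKM in all 3 PA libraries, with a log2 fold change of -6.31 (SE 2.61, adjusted p = 0.979). ND LP replicate 2, the library with the most Il22, also had the most Reg3b and Reg3g of the LP libraries. In IEL the library with the most Il22, PA IEL replicate 1, had Reg3b at 28.0 FPKM, and ND IEL replicate 2, with Il22 at 0.177 FPKM, had Reg3b at 2728 FPKM.

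Il17a, a cytokine that also induces Reg3 genes, was at 0, 217 and 43.5 FPKM in ND LP and at 0.0808, 0 and 0 FPKM in PA LP (adjusted p = 0.979 by limma). The PA LP values of Il17a were too low for a fold to be given. Il17f was at 0.0743, 1637 and 75.7 FPKM in ND LP and no higher than 0.283 FPKM in PA LP. Il6 was highest in PA LP replicate 1, at 1300 FPKM. Il22ra1, the receptor chain confined to non-haematopoietic cells, was at 2.01, 1.03 and 3.37 FPKM in ND IEL and at 0, 0 and 5.79 FPKM in PA IEL, where the library above 0 was also the one with the most Reg3b. Il10rb, the shared chain, had a log2 fold change of -1.72 (SE 1.35) in IEL and 0.99 (SE 1.35) in LP, and the receptors Il17rc and Il6st had -0.56 and -0.31 in IEL. None of these passed the adjusted threshold. The IEL sign of Il10rb and Il6st came from PA IEL replicate 2, without which they were at 0.44 and 0.16, and without PA LP replicate 2 Il10rb was at 0.54 in LP.

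Stat3, which carries the signal, had a log2 fold change of -1.19 (SE 1.14) in IEL and of 0.27 (SE 1.14) in LP. Without the libraries with the fewest genes the values were 0.08 and 1.28, so the IEL decrease rested on those libraries and the LP value was larger without them. Socs3, its feedback inhibitor and target, was at 348, 981 and 239 FPKM in ND LP and at 1709, 0.181 and 1493 FPKM in PA LP, so that 2 of 3 PA LP libraries lay above every ND LP library. The adaptor Myd88 had log2 fold changes of -2.38 in IEL and 0.88 in LP, and -0.56 and 1.57 without those libraries.

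Other epithelial targets of the axis varied in sign and between layers. Retnlb, a goblet cell antimicrobial protein, had a log2 fold change of -2.20 in IEL and -2.37 in LP (adjusted p = 0.955 and 0.979 by limma), and the secreted phospholipase Pla2g2a had -6.06 (SE 1.38, adjusted p = 0.947) and -0.33 (SE 1.38, adjusted p = 0.994). S100a8, a subunit of calprotectin that neutrophils also make, had a log2 fold change of 2.12 (SE 0.94, adjusted p = 0.947) in IEL and 0.90 in LP. All of these missed the adjusted threshold. Without the 2 libraries with the fewest genes, Retnlb was at -1.14 and -3.93, Pla2g2a at -5.28 and -0.65, and S100a8 at 1.32 and 0.37.

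**Figure D5:**
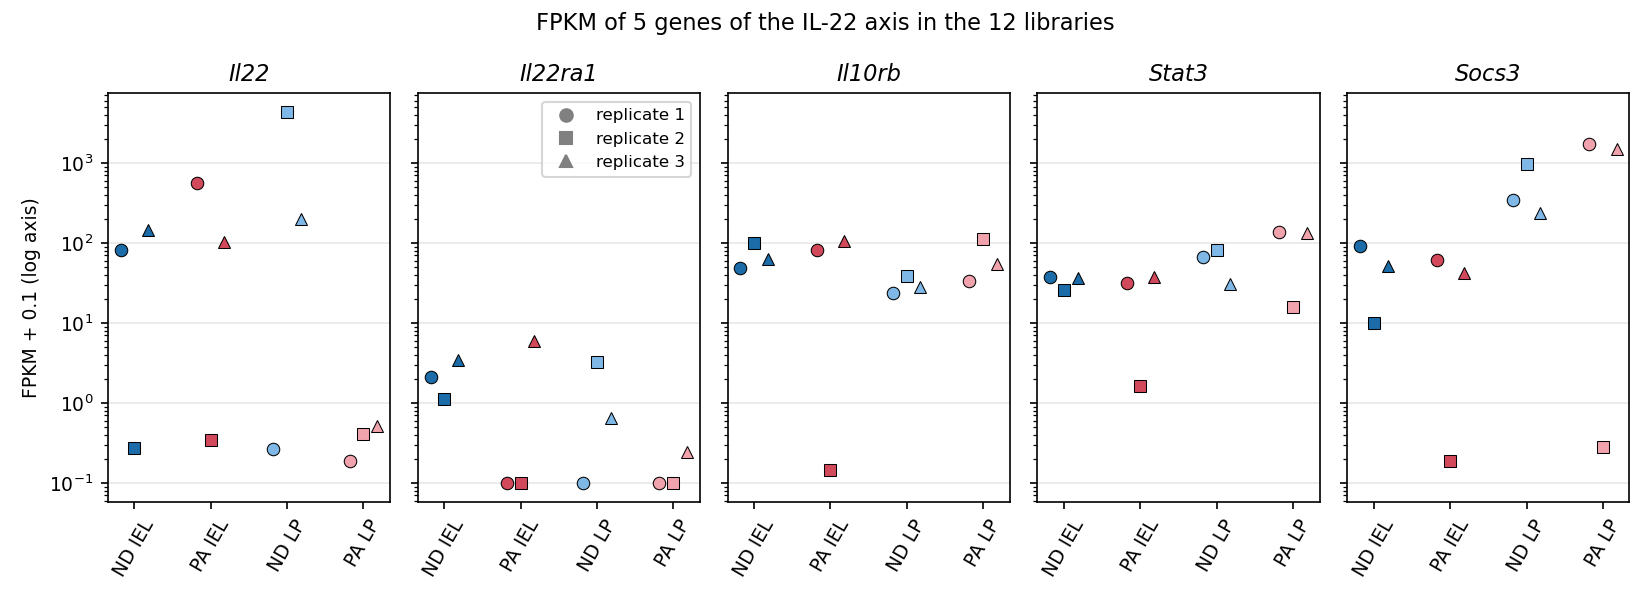
FPKM plus 0.1 on a log axis for 5 genes of the IL-22 axis, 1 point a library. Il22 is above 100 FPKM in PA IEL replicates 1 and 3 and under 0.5 FPKM in all PA LP libraries, and Socs3 is above every ND LP library in PA LP replicates 1 and 3.

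The genes most like Reg3b over the 12 libraries, by Spearman's rho of FPKM and leaving out the Reg genes, were Ttc22 (0.90), Unc5cl (0.90), Dock5 (0.90), Casp1 (0.90), Tfap4 (0.89), Hsd17b6 (0.89), Lsr (0.89) and Slc35f2 (0.89). For Reg3g they were Itfg1 (0.94), Casp1 (0.92), Phactr4 (0.92), Tfap4 (0.92), Bcl2l15 (0.91), Mcee (0.91), Casp6 (0.90) and Tubgcp6 (0.89). Casp1, the inflammatory caspase, and the transcription factor Tfap4 were on both lists. Lsr encodes a protein of tricellular epithelial junctions. All 14 genes were under 1 FPKM in PA IEL replicate 2 and 13 of 14 in PA LP replicate 2, the 2 libraries with the fewest genes. Reg3g stood first of all genes in likeness to Reg3b and Reg3b second in likeness to Reg3g. Among the members, rho with Reg3b was 0.76 for Reg3a, 0.52 for Reg1 and 0.35 for Reg4.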

How the data were processed

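RNA of ILC3s sorted from IEL and LP was analysed in 12 libraries, grouped by the layer and diet in their labels. The authors mapped reads to mm10 with TopHat2 2.1.1 and Bowtie2 2.2.8.0 and quantified genes with Cufflinks 2.2.1, per the labels and methods, and deposited FPKM values for 23284 genes. A second table deposited as counts holds rounded, scaled signal values, so no count model was the main test. Low values lay on steps, of which 90.3% to 96.5% were whole within 0.05, and the step gave the reads per library. Depth intervals and the floor of 3 reads cover counting error only.

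The 12502 genes with 3 or more libraries at an FPKM of 1 or higher were fitted with limma 3.58.1 (R 4.3.3). The fit was made on log2(FPKM + 1), allowing for a trend of variance with level, over 12 libraries and 4 group means, with Benjamini-Hochberg adjustment at 0.05. Such fold changes understate low genes. With 3 libraries against 3, an exact permutation test cannot go below p = 0.1. The limma fit, not the depth estimate, was tested on simulated data. These did not copy the loss of genes in some libraries, so that test does not cover it.

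The members and gene lists were chosen with earlier results of these data known. Genes named were the members, 7 genes of the IL-22 axis, the 3 most abundant tested genes in each of its lists, the 2 most abundant in each epithelial list, and the 8 most like Reg3b and Reg3g. Values of 2 genes that this rule names are not reported here. Epcam, Thy1, Il7r, Id2, Chga, Gip and single acinar genes were named after their values were seen. Alternatives were the pseudocount 0.1, 2 other filters, 2 scalings (median-ratio chosen after seeing the data) and 6 libraries only. Others were a replicate block, voom and libraries left out (for gene lists, chosen after seeing the data). The block was the replicate number for diet, and diet with number for the layers. Promoters are from RefSeq (GRCm38.p6), matched by symbol for all 7 family members, and coordinates from GENCODE vM21. Tables and plots used Python 3.11.15, pandas 2.3.3, scipy 1.17.1, Biopython 1.88 and matplotlib 3.10.9.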

Additional observations from a re-analysis of the deposited data

How the results depend on the processing

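In PA milk against ND, Reg3b and Reg3g had negative log2 fold changes in 16 of 16 alternatives, from -9.81 to -4.63 and from -7.39 to -3.75 in IEL and from -9.30 to -7.00 and from -7.49 to -3.37 in LP. Reg3a in IEL was negative in 16 of 16 (-7.75 to -1.44). Reg1 in IEL kept its sign in 11 of 16 (-2.03 to 2.24) and Reg4 in LP in 15 of 16. Among these alternatives, the other filters, the 6 libraries only and the replicate block leave the fold changes unchanged. They could not turn a sign. The log2 ratio of the mean FPKM, which 1 high library can set, gave -4.63 for Reg3b and -1.44 for Reg3a in IEL and, for IEL against LP in PA milk, 6.47 for Reg3b. A pseudocount of 0.1 gave -3.16 for Reg4 in LP. Counts of genes called by limma, over all genes, depended on the setting, and the cause was not tested. For IEL against LP in ND (4 genes) they were 1 with the pseudocount of 0.1, 0 with no filter, 1 with upper-quartile and 1 with median-ratio scaling, 92 with only the 6 libraries, 371 by voom and 113 without the 2 libraries with the fewest genes. For IEL against LP in PA milk (18 genes) they were 3 with no filter, 9 with upper-quartile scaling, 1 with only the 6 libraries, 0 by voom and 314 without the 2 libraries. Leaving out single libraries gave 0 (without PA IEL replicate 1) to 1 (without PA IEL replicate 3) called for diet in IEL, 0 (without PA LP replicate 1) to 8 (without PA LP replicate 3) for diet in LP, 0 to 2 for the layers in ND (without ND IEL replicate 2 and 1) and 1 to 289 for the layers in PA milk (without PA LP replicate 1 and 2). Apart from single libraries left out, the other 214 values moved by less than the spread between libraries or, for counts, by less than 1.5 times.

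Replicate numbers did not pair the libraries, since same-numbered libraries correlated at -0.12 to 0.07 in their deviations from the group means. With the replicate number as a block, 3 genes were called for diet in LP. With diet and number together as a block, 0 and 5 were called for the layers in ND and in PA milk, and 1 for the difference between the layers. Depth limits the low members, as Reg1 and Reg3a in PA LP had 3 reads or fewer in each library.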
